A study of Mus musculus with 6 samples.

Results

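The nuclear genes for the subunits of respiratory complex I were described in pancreatic islets of Wt and Pax8 +/- mice. Members were all genes whose symbol in the array annotation starts with Ndufa, Ndufb, Ndufc, Ndufs or Ndufv, without the assembly factors of the Ndufaf family. This rule gave 38 of the 19505 named genes on the array, each measured by 1 probe set, and the 38 symbols equalled those of the RefSeq gene table. Ndufb1 and the subunits encoded by mitochondrial DNA were not analysed here. Not every match is a complex I subunit. Ndufa4 is now regarded as a subunit of complex IV, Ndufa4l2 is its hypoxia-induced paralog and Ndufb4b is a copy of Ndufb4 with which it may share probes, so these 3 are set apart as members by symbol only.

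Islet RNA of 3 Wt (called Control in the sample labels) and 3 Pax8 +/- samples was hybridized to 6 Clariom S arrays, which carry probe sets for most mouse genes. Both groups were untreated male mice on a C57BL/6 background, kept on standard chow, killed at 9 months of age after 16 hours of fasting. Pax8 +/- mice lack 1 working copy of Pax8 in every cell, a transcription factor that the thyroid needs to make its hormones, so the heterozygosity is not limited to islet cells. Islets were freed with collagenase and picked by hand, and no source states how many mice were used per array, so p-values measure the spread between these arrays only. Every value below is a log2 value from RMA (robust multi-array average), a background correction, normalization and summary of the probes. A level was called above background where it exceeded 95% of the negative controls on its own array, a limit that lay between 7.60 and 7.97.

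Complex I is the entry point of electrons from NADH into the respiratory chain. Its matrix arm oxidises NADH at a flavin and passes the electrons along iron-sulfur clusters to ubiquinone, and its membrane arm uses the energy to pump protons. Around a core shared with bacteria sit many accessory subunits that hold the arms together or serve assembly. In beta cells, respiration driven by glucose raises ATP, which closes potassium channels and triggers insulin release.

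The genotype labels could not be checked on Pax8 itself, which lay below background on all 6 arrays with values from 4.58 to 5.05. The hormone genes Ins2, Iapp and Gcg reached the end of the scale on each array, and so did the acinar enzyme genes Cpa1, Cpb1, Ctrb1, Cel and Amy2a5, so exocrine RNA was present in both groups. Between 25.3% and 29.5% of gene probe sets lay above background per array. Array Pax8 +/- 1 stood apart from Pax8 +/- 2 and 3, with correlations over all gene probe sets of 0.967 and 0.963. Those arrays correlated at 0.984 with each other, and Pax8 +/- 1 at 0.981 to 0.984 with the Wt arrays. It fell within the range of the 3 Wt arrays for 26 of the 38 members (68.4%) and for 55.8% of all gene probe sets. Wt 3 fell within the Pax8 +/- range for 23 members (60.5%) and 59.9% of all gene probe sets, so such shares alone do not set an array apart. Results for the members are therefore also given without Pax8 +/- 1. Leaving out the Pax8 +/- array most like Wt tends by itself to widen the differences.

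The promoters of the members are shown first for the letters that they share. Of the 38 members, 34 had a promoter in the RefSeq table (GRCm38.p6), taken as 250 bases before and 50 after the annotated start. Both strands were searched for the letters of 4 motifs of factors known to act on respiratory chain genes, and no member held more than 1 of them. The YY1 letters AANATGGCG stood in 6 of the 34 promoters (17.6%) against 2.51% of the 27025 promoters in the table. The NRF1 letters GCGCATGC stood in 3 (8.82% against 2.8%), the ERR letters AAGGTCA in 3 (8.82% against 4.66%; Ndufb2, Ndufb4 and Ndufs5) and the ETS letters CCGGAAGT in 1 (2.94% against 4.0%; Ndufs3). These counts describe letters and were not tested.

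The YY1 stretches are printed to show how alike they are, 5′ to 3′ along the gene, with the motif in capitals and up to 9 bases on each side, after the position in GRCm38.p6 and the strand of the gene.
Ndufa9 (chr6:126849098-126849124, minus strand): ttgtgggagAAGATGGCGgccgccgtc
Ndufb11 (chrX:20617813-20617839, minus strand): caccaacacAAAATGGCGacgagaaga
Ndufc1 (chr3:51408916-51408942, minus strand): ctgcggaacAAGATGGCGccgtccgta
Ndufs4 (chr13:114388045-114388068, minus strand): gcctacaggAAGATGGCGgcggtc
Ndufs6 (chr13:73328433-73328458, minus strand): gtcaccggcAAGATGGCGgcggtgct
Ndufs7 (chr10:80249464-80249490, plus strand): gccgaggccAAGATGGCGgcgctggcg
In 5 of these 6 the match began 22 to 35 bases after the annotated start, and in Ndufb11 it began 211 bases before it. For Ndufs7, the start used lies downstream of the first base of the gene in the RefSeq table. The letters contain ATG, and whether it is the start codon was not looked up.

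The NRF1 stretches, among them that of Ndufa8, the member with the second largest difference, are printed in the same way. The motif reads GCATGCGC where it lies on the other strand.
Ndufa11 (chr17:56717693-56717718, plus strand): ctgcactgcGCGCATGCgcgcacgcc
Ndufa6 (chr15:82354358-82354383, minus strand): cgcggtagaGCATGCGCattgcagag
Ndufa8 (chr2:36049330-36049355, minus strand): gctggagacGCATGCGCagatggtac
The match in Ndufa8 began 8 bases before the start, the marked one in Ndufa11 60 and that in Ndufa6 83 bases before it. Ndufa11 held a second, overlapping match on the other strand, at positions -58 to -51 from the start, which is not marked in full.

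Whole promoters of 300 bases are given for Ndufb3 (chr1:58586147-58586446, plus strand), the member past the thresholds of the study by group means, Ndufa8 (chr2:36049289-36049588, minus strand) and Ndufs3 (chr2:90904672-90904971, minus strand), the member with the lowest difference. Capitals mark the NRF1 letters in Ndufa8 and the ETS letters, on the other strand, in Ndufs3.
Ndufb3: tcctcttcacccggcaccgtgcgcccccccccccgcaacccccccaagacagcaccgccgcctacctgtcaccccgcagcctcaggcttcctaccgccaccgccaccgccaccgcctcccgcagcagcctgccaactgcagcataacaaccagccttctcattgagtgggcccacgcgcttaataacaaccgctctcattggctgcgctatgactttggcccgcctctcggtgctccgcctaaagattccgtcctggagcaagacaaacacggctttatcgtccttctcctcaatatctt
Ndufa8: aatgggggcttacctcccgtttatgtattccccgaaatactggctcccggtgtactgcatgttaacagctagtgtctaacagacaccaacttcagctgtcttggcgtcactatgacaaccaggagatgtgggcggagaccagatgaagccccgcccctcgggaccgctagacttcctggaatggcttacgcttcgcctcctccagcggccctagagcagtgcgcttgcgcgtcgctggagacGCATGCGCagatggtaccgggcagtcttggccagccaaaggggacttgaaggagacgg
Ndufs3: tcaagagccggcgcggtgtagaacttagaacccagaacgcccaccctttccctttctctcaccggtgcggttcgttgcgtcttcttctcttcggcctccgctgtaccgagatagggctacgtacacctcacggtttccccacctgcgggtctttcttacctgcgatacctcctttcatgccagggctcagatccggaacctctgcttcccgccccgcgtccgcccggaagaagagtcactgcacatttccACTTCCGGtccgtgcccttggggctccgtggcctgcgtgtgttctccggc
None of the 4 motifs was found in the Ndufb3 window, which says only that these letters are not there.

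Complex I genes were, for the most part, slightly higher in Pax8 +/- islets, and few differences exceeded the spread between arrays. The mean was higher in Pax8 +/- for 27 of the 38 members, against 49.2% of all 22206 gene probe sets. The median log2 difference (Pax8 +/- minus Wt) of the members was 0.24, that of all gene probe sets -0.01, and single members ranged from -0.61 to 1.33. Of the 28 members above background on all 6 arrays, 22 were higher, with a median of 0.26, and among the 4812 probe sets of that kind the median was 0.02 and 2502 were higher. A further 7 members, Ndufa4l2, Ndufa5, Ndufa7, Ndufb7, Ndufb8, Ndufb10 and Ndufv3, lay below background on every array, so their differences carry little weight.

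By limma over all probe sets, 4 members were higher in Pax8 +/- at an unadjusted p of at most 0.05, where 3.14% of all probe sets were, and 0 were lower, where 2.77% were. At the thresholds of the study, a fold change of at least 2.5 with that p, 1 member was higher (background 0.648%) and 0 were lower (background 0.351%) with the fold change taken between group means. The number turned on how the fold change was summarised: with a Tukey biweight, a mean that gives outlying arrays less weight, in place of the mean (chosen after seeing the data), 3 members were higher, Ndufb3 (log2 difference 1.32), Ndufa8 (1.43) and Ndufa4 (1.37), against 1.04% of all probe sets, and 0 were lower, against 0.536%. Arrays of the groups did not overlap for 3 higher members (background 4.52%) and 1 lower member (background 5.14%). After Benjamini-Hochberg adjustment over all probe sets, 0 members and 0% of all probe sets passed 0.05, and the smallest adjusted p of a member in limma was 0.745, which holds for every member and gene described below as passing unadjusted. Without array Pax8 +/- 1, 5 members were higher and 1 was lower at the thresholds of the study by group means, 0 of them after adjustment, and the median difference was 0.35. Calls over all probe sets rose with them, to 3.33% higher and 2.69% lower.

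**Figure D1:**
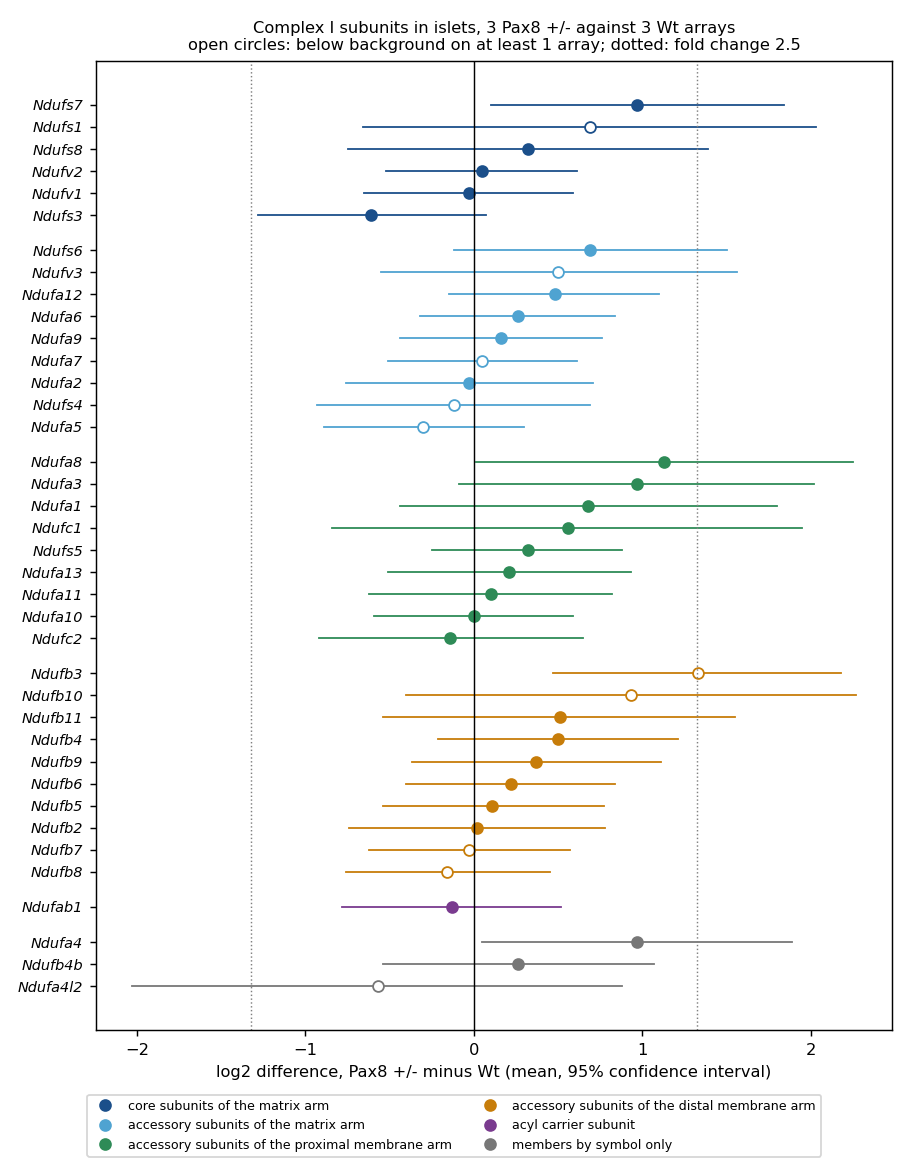
Log2 difference (Pax8 +/- minus Wt, 3 arrays each) of the 38 members on the x axis, by place in the complex, with the 95% confidence interval of the limma fit as bars. Open circles mark members below background on at least 1 array and dotted lines a fold change of 2.5, which Ndufb3 alone, at 1.33, reached by group means.

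Core subunits of the matrix arm, which carry the flavin and the iron-sulfur clusters, were represented by 6 members. They did not move together: 4 had the higher mean in Pax8 +/- and 2 the lower, with a median difference of 0.18 and 1 member at an unadjusted p of at most 0.05. Ndufv1, which binds the flavin and takes up NADH, stood at 11.33, 11.23 and 11.24 on Wt arrays 1 to 3 and at 11.67, 11.07 and 10.96 on Pax8 +/- arrays 1 to 3. The difference was -0.03 (SE 0.27, 95% interval -0.65 to 0.59), with array Pax8 +/- 1 above and the other two below every Wt array.

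Ndufv2, the iron-sulfur partner of Ndufv1, gave 10.62, 10.82 and 11.04 in Wt and 11.06, 10.78 and 10.78 in Pax8 +/- islets, a difference of 0.05 (SE 0.25, 95% interval -0.52 to 0.61). Its groups overlapped. Ndufs1, the large subunit whose clusters carry electrons out of the NADH end, gave 7.62, 6.55 and 8.62 in Wt and 7.35, 8.44 and 9.06 in Pax8 +/- islets, and was above background on 3 of the 6 arrays. Its difference of 0.69 (SE 0.59) lay within a Wt spread of 1.03 (SD, n = 3).

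Ndufs7, which holds the last cluster before ubiquinone, was measured at 8.28, 8.31 and 8.92 in Wt and at 8.94, 10.24 and 9.24 in Pax8 +/- islets. All 3 Pax8 +/- arrays were above all 3 Wt arrays, although Wt 3 and Pax8 +/- 1 differed little. The means were 8.50 ± 0.36 (SD, n = 3) and 9.47 ± 0.68 (SD, n = 3), 1.96-fold apart, with a log2 difference of 0.97 (SE 0.38, 95% interval 0.10 to 1.84), past the unadjusted p of 0.05 in limma but not the fold change of 2.5. Without moderation, Wt 1, Wt 2 or Pax8 +/- 2, at 0.97, 0.86, 0.87 and 0.58, it no longer passed that p.

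Ndufs8, another carrier of iron-sulfur clusters near ubiquinone, stood at 9.69, 10.18 and 11.10 in Wt and 9.87, 11.35 and 10.71 in Pax8 +/- islets, with a difference of 0.32 (SE 0.47). High and low arrays stood in both groups. Ndufs3, a core subunit without a cluster at the foot of the matrix arm, went the other way, at 12.48, 11.57 and 12.16 in Wt and 11.54, 11.50 and 11.34 in Pax8 +/- islets. Its Pax8 +/- arrays lay close together below all Wt arrays, but Wt 2 was only just above them. The difference of -0.61 (SE 0.29, 95% interval -1.28 to 0.07) did not pass in limma (adjusted p = 0.745), but passed the unadjusted p with array weights (-0.71), with quantile normalization (-0.67) and without Wt 2 (-0.86).

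**Figure D2:**
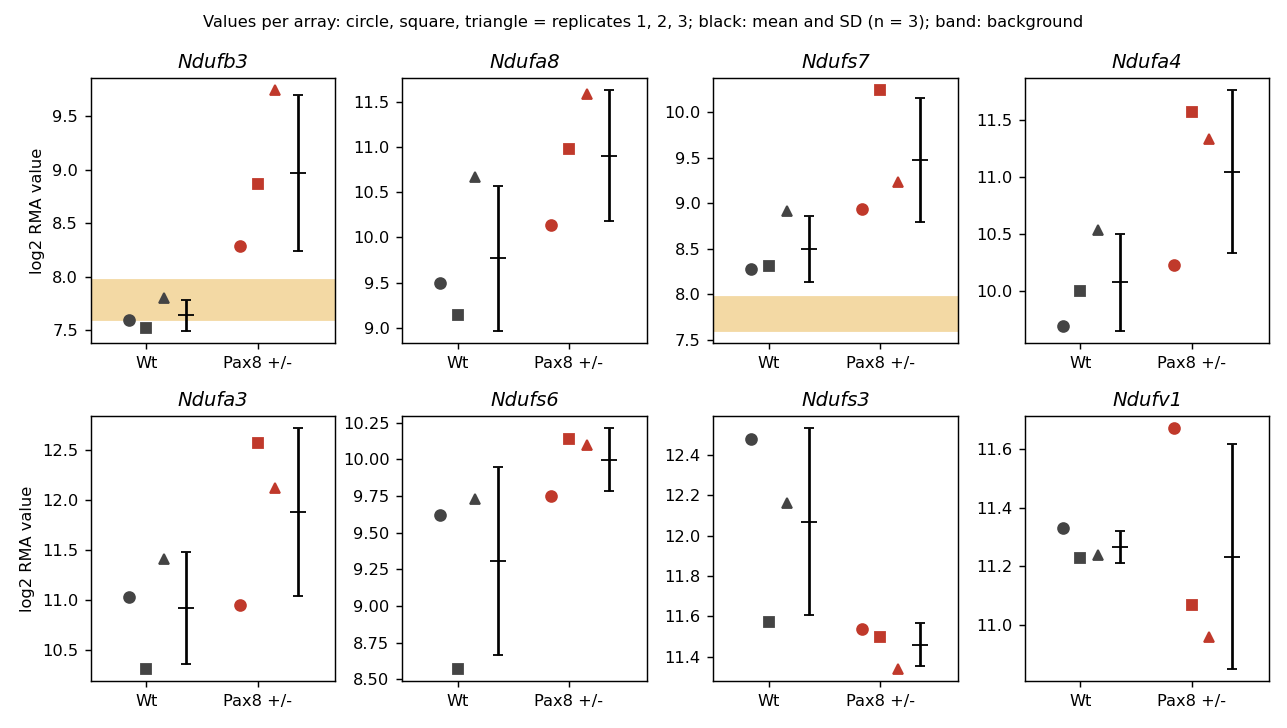
Log2 RMA values (y axis, a scale of its own in each panel) of 8 members on the Wt and Pax8 +/- arrays, with circle, square and triangle for replicates 1, 2 and 3 and the mean and SD (n = 3) in black. The band spans the background of the 6 arrays, 7.60 to 7.97; Wt values of Ndufb3 lie in or below it, and the groups do not overlap for Ndufb3, Ndufs7, Ndufs6 and Ndufs3.

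Accessory subunits of the matrix arm showed small differences. Those of the 9 genes ran from -0.30 to 0.69 with a median of 0.16, and 0 of them had an unadjusted p of at most 0.05. Ndufs6, a zinc-binding subunit added late in assembly, was the highest of them. It stood at 9.62, 8.57 and 9.73 in Wt and at 9.75, 10.14 and 10.10 in Pax8 +/- islets, so that the groups did not overlap, with array Wt 2 far below the rest and Wt 3 next to Pax8 +/- 1. Its difference was 0.69 (SE 0.35, 95% interval -0.12 to 1.5).

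Others with a higher mean were Ndufv3 (0.50, below background), Ndufa12 (0.48), Ndufa6 (0.26), which anchors an acyl carrier protein, Ndufa9 (0.16), which binds NADPH, and Ndufa7 (0.05, below background). Those with a lower mean were Ndufa2 (-0.03), Ndufs4 (-0.12), whose loss in mice models Leigh syndrome, and Ndufa5. The Ndufa5 probe set read 7.11, 7.45 and 7.59 in Wt and 7.03, 7.32 and 6.91 in Pax8 +/- islets, under background throughout, with overlapping groups (difference -0.30, SE 0.26).

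Accessory subunits of the proximal membrane arm, which joins the matrix arm, held 9 genes, all above background on every array. The mean was higher in Pax8 +/- for 7 of them, with a median of 0.32 and 1 gene at an unadjusted p of at most 0.05. That gene was Ndufa8, a cysteine-rich subunit on the face towards the intermembrane space. Its levels were 9.49, 9.14 and 10.67 in Wt and 10.14, 10.98 and 11.58 in Pax8 +/- islets. Wt 3 lay above Pax8 +/- 1, so the groups overlapped by that pair. The means of 9.77 ± 0.80 (SD, n = 3) and 10.90 ± 0.73 (SD, n = 3) differed by 1.13 (SE 0.49, 95% interval 0.01 to 2.25, 2.19-fold), past the unadjusted p in limma and short of the fold change of 2.5 between means. Without moderation, Wt 1, Wt 2, Pax8 +/- 2 or Pax8 +/- 3 it missed that p.

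Ndufa3, a small membrane-spanning subunit, gave 11.03, 10.31 and 11.41 in Wt and 10.95, 12.57 and 12.12 in Pax8 +/- islets. Pax8 +/- 2 and 3 were above every Wt array and Pax8 +/- 1 among them, and the difference was 0.97 (SE 0.46, 95% interval -0.09 to 2.02). Smaller positive differences were seen for Ndufa1 (0.68), needed early in assembly of the membrane arm, Ndufc1 (0.56), Ndufs5 (0.32), Ndufa13 (0.21), also known as GRIM-19, and Ndufa11 (0.10). Ndufa10, which resembles a nucleoside kinase, differed by less than 0.01 (95% interval -0.59 to 0.59).

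Ndufc2, which sits beside Ndufc1, stood at 13.32, 12.15 and 13.05 in Wt and at 12.47, 12.74 and 12.90 in Pax8 +/- islets. The Pax8 +/- arrays lay inside the Wt range, and the difference was -0.14 (SE 0.34).

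Accessory subunits of the distal membrane arm, at the far end of the proton pump, held 10 measured genes, of which 6 were above background on all arrays and 8 had the higher mean in Pax8 +/- (median 0.29). Ndufb3, a small single-pass membrane subunit, was the member that rose at the thresholds of the study by group means. It stood at 7.60, 7.52 and 7.80 in Wt and at 8.29, 8.87 and 9.74 in Pax8 +/- islets. All Pax8 +/- arrays were above background and above all Wt arrays, while Wt 1 and Wt 2 were below their background. The means of 7.64 ± 0.14 (SD, n = 3) and 8.97 ± 0.73 (SD, n = 3) differed by 1.33 (SE 0.37, 95% interval 0.47 to 2.18, limma adjusted p = 0.745). Its fold change of 2.51 was just past 2.5, and with Wt islets at background its size is uncertain. Leaving out Wt 1, Wt 2 or Pax8 +/- 3 put the difference below the fold threshold, at 1.30, 1.27 and 0.94.

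Of the rest, Ndufb10 had the next largest difference at 0.93 (SE 0.58), but its values of 4.34 to 7.06 were below background on all arrays. Ndufb11 (0.51), encoded on the X chromosome, Ndufb4 (0.50), Ndufb9 (0.37), a relative of Ndufa6 in fold, Ndufb6 (0.22), Ndufb5 (0.11) and Ndufb2 (0.02) followed. Ndufb7 differed by -0.03 at background, and Ndufb8, whose protein is a common marker of intact complex I, read 7.64, 7.34 and 7.03 in Wt and 7.04, 7.36 and 7.13 in Pax8 +/- islets, also at background (difference -0.16, SE 0.26). No order between the groups can be read from these values.

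Ndufab1, the acyl carrier protein that also serves mitochondrial fatty acid synthesis, gave 11.00, 10.74 and 11.36 in Wt and 10.75, 10.69 and 11.25 in Pax8 +/- islets. Its groups overlapped and its difference was -0.13 (SE 0.28, 95% interval -0.78 to 0.52).

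Among the members by symbol only, Ndufa4, the complex IV subunit, stood at 9.69, 10.00 and 10.53 in Wt and at 10.23, 11.57 and 11.33 in Pax8 +/- islets. Only Wt 3 and Pax8 +/- 1 overlapped, and the difference was 0.97 (SE 0.40, 95% interval 0.05 to 1.89), past the unadjusted p in limma. It missed that p without moderation, Wt 1, Wt 2, Pax8 +/- 2 or Pax8 +/- 3. Ndufa4l2, which restrains complex I in hypoxic cells, read 4.45, 4.94 and 3.78 in Wt and 5.38, 2.87 and 3.20 in Pax8 +/- islets, below background on every array. Array Pax8 +/- 1 was the highest and the others of its group the lowest, with a difference of -0.57 (SE 0.63). Ndufb4b differed by 0.26 (SE 0.35). Without these 3, the median of the other 35 members was 0.22.

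The spread within a genotype was as large as most differences, and it had an order that many members shared. The median SD over the members was 0.44 in Wt and 0.34 in Pax8 +/- islets, against 0.34 and 0.36 over all gene probe sets. Pax8 +/- 2 was the highest array for 17 of the 38 members, and Wt 2 was the lowest for 17 and the highest for 0. Wt 1 was the lowest for 12. The mean over the 38 members was 9.31, 9.16 and 9.75 on the Wt arrays and 9.39, 9.93 and 9.78 on the Pax8 +/- arrays, so that Wt 3 stood with Pax8 +/- 2 and 3, and Pax8 +/- 1 with Wt 1 and 2. Among the 28 members above background on all arrays, Ndufv1, Ndufs3 and Ndufv2 did not follow this order. Ndufc2, Ndufa9, Ndufab1 and Ndufs5 followed it weakly, with correlations of 0.28 to 0.34 with the mean of the other members over the 6 arrays.

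**Figure D3:**
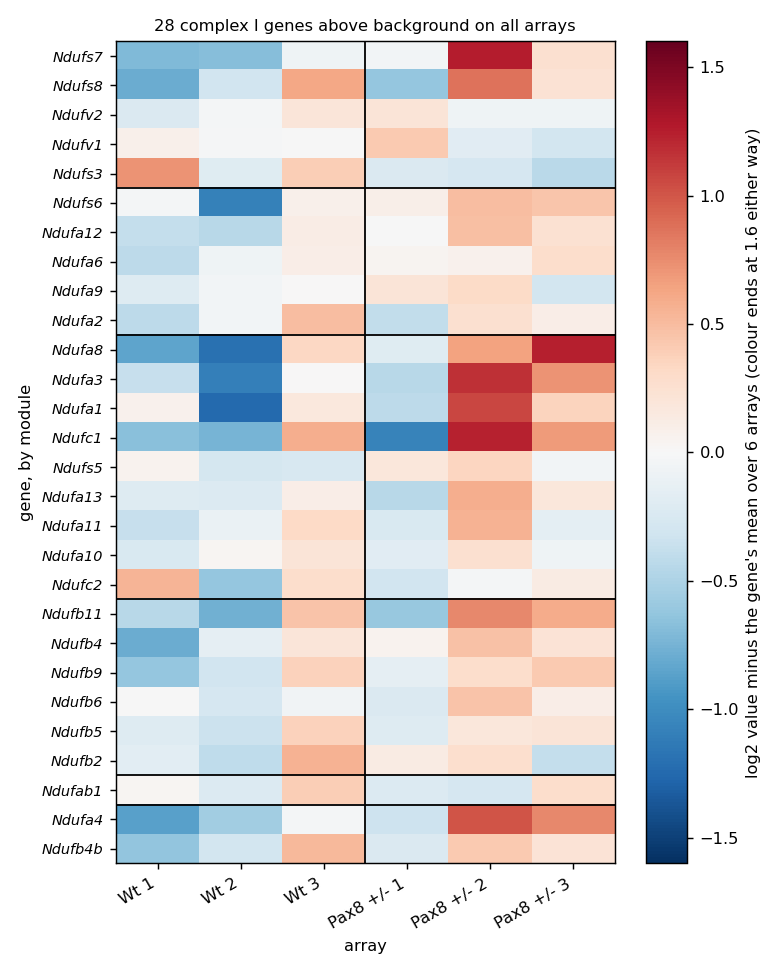
Heat map of the 28 members above background on all arrays (rows, by place in the complex) on the 6 arrays (columns), coloured by the log2 value minus the gene's mean over the arrays. Most rows are red on Wt 3, Pax8 +/- 2 and Pax8 +/- 3 and blue on Wt 1, Wt 2 and Pax8 +/- 1, while Ndufv1 and Ndufs3 are not.

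Cell type markers moved over the arrays as well. The mean of 11 beta cell markers was 12.90, 11.74 and 14.04 in Wt and 12.73, 15.00 and 15.06 in Pax8 +/- islets, lowest on Wt 2 and highest on Pax8 +/- 2 and 3, the order that the mean of the complex I genes also had at its ends. All 11 had the higher mean in Pax8 +/- (median difference 1.13), and Nkx2-2 was the 1 past the thresholds of the study. However, Ins2 and Iapp were at the end of the scale, Mafa was below background on every array and Pdx1 was above it on 3. The mean of 4 delta cell markers was 10.06, 9.44 and 11.41 against 10.25, 11.22 and 10.92 (median difference 0.38), also lowest on Wt 2 and highest on Wt 3 and Pax8 +/- 2 and 3. Of these, Hhex and Ghsr were below background on every array, and Sst was at the end of the scale on Pax8 +/- 2 and 3. The mean of 3 alpha cell markers was 14.07, 13.96 and 14.62 against 14.35, 15.14 and 14.08 (median difference 0.13). Gcg was at the end of the scale and Irx2 below background on every array, which leaves Ttr (0.78). The duct marker mean of 7 genes ran the other way, at 12.57, 13.32 and 12.46 in Wt and 13.35, 11.68 and 11.35 in Pax8 +/- islets (median difference -0.87), although Krt7 differed by 0.93. That of 5 endothelial markers was 10.20, 10.39 and 9.32 against 10.29, 8.98 and 9.10, carried by Cdh5 (-1.72) and Pecam1 (-1.23), while their median difference was -0.11 and Plvap differed by 0.59. The acinar marker mean stayed between 16.56 and 16.85, with most of its genes at the end of the scale. Of the macrophage, lymphocyte, mesenchymal, erythroid, Schwann and adipocyte markers, 0 were above background on all arrays. C1qa, a complement gene of macrophages, was past the thresholds of the study at 1.76 (SE 0.57), above background on 2 arrays, Pax8 +/- 2 and 3. In bulk islet RNA, fewer cells of a type and less RNA per cell cannot be told apart, and the part of cell makeup in the complex I differences was not tested.

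The assembly factors of complex I, which build the complex and are not part of it, were described beside the subunits. Of 17 measured, 7 had the higher mean in Pax8 +/-, with a median difference of -0.13, 0 had an unadjusted p of at most 0.05, and 10 were below background on every array. Those with the smallest p were Dmac2 (-0.72, SE 0.35), Ndufaf6 (-0.47, SE 0.30), Ndufaf7 (0.55, SE 0.39) and Ndufaf4 (-0.47, SE 0.34), and of these Ndufaf4 alone was above background throughout. The difference between the lists was not tested.

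The nuclear subunits of complexes II to V had a median near that of complex I. Of 38 genes, 25 had the higher mean (median 0.29). At an unadjusted p of at most 0.05, 6 were higher and 1 lower, against 3.14% and 2.77% of all probe sets. At the thresholds of the study, 2 were higher, against 0.648% of all probe sets. By complex, the median was 0.33 for the 4 genes of complex II, -0.16 for 9 of complex III, 0.08 for 10 of complex IV and 0.51 for 15 of complex V, the ATP synthase. Sdhc, a membrane anchor of complex II, differed by 1.20 (SE 0.47) and Uqcrc2, a core protein of complex III, by 0.66 (SE 0.26). In the ATP synthase, Atp5f1d of the central stalk differed by 1.12 (SE 0.46) and Atp5mc3 of the membrane ring by 0.64 (SE 0.27). The 2 genes past the thresholds were Cox6a1 of complex IV at 1.82 (SE 0.77) and Atp5mc2 of the membrane ring at 1.35 (SE 0.58). Cyc1, cytochrome c1 of complex III, was the lower one at -0.67 (SE 0.29). It was above background on 2 arrays only, and its groups overlapped. The means of the 38 genes per array were 10.75, 10.84 and 11.40 in Wt and 10.96, 11.69 and 11.24 in Pax8 +/- islets. These were again highest on Wt 3, Pax8 +/- 2 and Pax8 +/- 3.

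**Figure D4:**
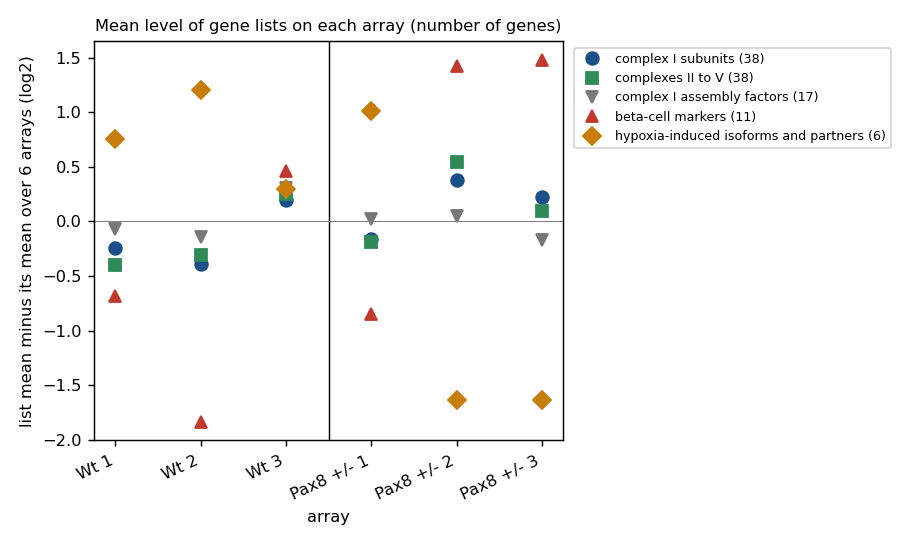
Mean log2 level of each gene list on the 6 arrays, minus the list's mean over the arrays (y axis); the number of genes is in the legend. Complex I subunits (means from 9.16 to 9.93) and complexes II to V move over a narrower range than the beta cell markers (11.74 to 15.06), which share their low and high arrays, and the hypoxia-induced genes (7.28 to 10.12) are lowest on Pax8 +/- 2 and 3.

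Enzymes that feed ubiquinone beside complex I or handle NADH had a median difference of 0.46 over 10 genes, of which 8 had the higher mean and 0 reached an unadjusted p of 0.05. The smallest p belonged to Etfdh, which delivers electrons from fatty acid oxidation (0.63, SE 0.31), and Sqor, the sulfide oxidase (0.68, SE 0.34). Sqor was above background on 1 array only. Gpd2, the mitochondrial glycerol phosphate dehydrogenase that is abundant in beta cells (0.96, SE 0.49), came next. Mdh2, the malate dehydrogenase of the TCA cycle (0.58, SE 0.32), followed.

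Regulators of mitochondrial biogenesis had a median of 0.00 over 10 genes. Yy1, the factor whose letters stood in 6 promoters, was the 1 lower at an unadjusted p of at most 0.05. It stood at 10.97, 10.94 and 10.19 in Wt and at 10.15, 9.99 and 9.70 in Pax8 +/- islets, with no overlap between the groups, although Wt 3 and Pax8 +/- 1 were close. Its difference was -0.75 (SE 0.30, 95% interval -1.44 to -0.07). Values for the coactivator Ppargc1a (0.71, below background), Gabpa (-0.60) and Gabpb1 (-0.65) did not pass.

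Genes of the respiratory chain and its partners that hypoxia induces had the lower mean in Pax8 +/- for 6 of 6 (median difference -1.36). Of these, 1 was past the thresholds of the study, where 0.351% of all probe sets were lower. Cox4i2 was below background on every array. Pdk1, a kinase that inhibits pyruvate dehydrogenase, fell by 1.37 on the log2 scale (SE 0.52, limma adjusted p = 0.745), from 11.80, 11.60 and 11.66 in Wt to 11.55, 10.16 and 9.25 in Pax8 +/- islets. Array Pax8 +/- 1 was only just below the Wt arrays. Higd1a, a small partner of the respiratory chain (-2.11), Egln3, an oxygen-sensing hydroxylase (-2.73), and Bnip3, which directs mitochondria to degradation (-1.35), were also lower. They spread widely within Pax8 +/- islets and did not pass. Higd1a and Egln3 were below background on Pax8 +/- 2 and 3, so the size of their differences is uncertain.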

How the data were processed

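Islet RNA of 3 Wt and 3 Pax8 +/- samples was measured on 6 Clariom S arrays, 1 per sample, and grouped by the sample labels. The authors deposited log2 values, 1 per probe set and array; the notes of the submitters list RMA together with the Transcriptome Analysis Console, and a version, an annotation or a genome build was not given in the sources used here. Of 28846 rows, 5222 negative and 1418 other controls were left out and 22206 gene probe sets tested with no filter on level. Of these, 19572 had 1 gene symbol in the platform annotation, 0 had several and 2634 are unnamed here. The brightest probe set stood for a gene. Groups were compared with R 4.3.3 and limma 3.58.1 (lmFit, eBayes, 2-sided, no covariate), with Benjamini-Hochberg adjustment over all probe sets. The thresholds of the study were a fold change of 2.5 and an unadjusted p of 0.05. An exact permutation test of 3 against 3 arrays cannot go below p = 0.1. The code was tested on simulated data. The number of arrays limits the precision. Members and gene lists were chosen with earlier results of these data known. Values on every array are given for the core subunits, members past the thresholds, the 5 largest and 5 smallest differences, Ndufa4, Ndufa4l2 and Ndufab1, and up to 4 genes with the smallest p are named per pathway list. Ndufs6, Ndufb10, Cox6a1, Atp5mc2, Cyc1, Nkx2-2, C1qa, Krt7, Cdh5, Pecam1 and Plvap were named after their values were seen. So were the markers Mafa, Pdx1, Sst, Hhex, Ghsr, Irx2 and Ttr, and Cox4i2 of the hypoxia list. Alternatives were quantile normalization, a common median, array weights, no moderation, moderation with a robust trend, a filter on dim probe sets, a replicate block, all probe sets of a gene, a fold change of 2, other sets of members, leaving out each array and, added after seeing the data, a Tukey biweight fold change.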

Additional observations from a re-analysis of the deposited data

How the results depend on the processing

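The number of arrays and the background limit these results, and no member passed adjustment under any alternative, although 29 other probe sets did without array Pax8 +/- 1. The count of members higher at the thresholds of the study, 1, became 2 with a fold change of 2 and with array weights, 0 with quantile normalization and 3 with a Tukey biweight fold change (chosen after seeing the data). It ranged from 0 to 5 when 1 array was left out, being 5 without Pax8 +/- 1, 2 without Wt 3 and 0 without Wt 1, Wt 2 or Pax8 +/- 3. Higher calls over all probe sets moved with it, from 144 to 740, 553, 52, 24 and 38 in that order, and were 232 with the Tukey biweight. They were 494 with array weights and 124 with quantile normalization. Calls over all probe sets were not counted at a fold change of 2. The count lower, 0, reached 1 without Pax8 +/- 1 and was 0 without each other array. At an unadjusted p of at most 0.05, the count higher, 4, was 1 with no empirical Bayes moderation and 7 with array weights. It was 3 with quantile normalization or without the dimmest probe sets, where Ndufa8 missed that p. Over arrays left out it ranged from 1 to 8 (1 without Wt 1, Wt 2 or Pax8 +/- 2, 2 without Pax8 +/- 3, 8 without Pax8 +/- 1). The count lower, 0, was 1 with array weights and with quantile normalization and 0 to 1 over arrays left out. Over all probe sets the count higher, 698, was 443 with no moderation, 1684 with array weights and 708 with quantile normalization. It was 306, 252, 288, 333 and 1775 without Wt 1, Wt 2, Pax8 +/- 2, Pax8 +/- 3 and Pax8 +/- 1. The count lower over all probe sets, 614, was 1392 with array weights, 638 with quantile normalization and 263 to 1632 over arrays left out. Ndufa3 passed that p with array weights and without Wt 3 or Pax8 +/- 1. The median difference of the members lay between 0.07 (without Pax8 +/- 2) and 0.35 (without Pax8 +/- 1). Ndufb3 stayed under the fold threshold with quantile normalization (1.29), and Ndufa8 passed with array weights (1.33), without Wt 3 (1.58) and without Pax8 +/- 1 (1.51). Without Pax8 +/- 1, Ndufa3 (1.43), Ndufa4 (1.38), Ndufb10 (1.55, below background) and Ndufa4l2 (-1.36, below background) passed as well. Differences near 0 changed sign when 1 array was left out: Ndufv2 (-0.06 to 0.15, below 0 without Wt 1 and, at -0.05, Pax8 +/- 1), Ndufc2 (-0.48 to 0.11, above 0 without Wt 1), Ndufab1 (-0.31 to 0.03, above 0 without Wt 3), Ndufv1 (-0.25 to 0.11, above 0 without Pax8 +/- 3 and, at 0.05, Pax8 +/- 2) and Ndufs8 (-0.03 to 0.71, below 0 without Pax8 +/- 2). So did the small differences of Ndufa13, Ndufa10, Ndufb5, Ndufa2, Ndufa11, Ndufs4, Ndufb2, Ndufb7 and Ndufa7. The cause of these shifts was not tested.

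No source pairs same-numbered arrays. Deviations correlated at 0, -0.42 and 0.14 for replicates 1, 2 and 3 and -0.45 to 0.47 for other pairs, which cannot settle pairing. With a replicate block, 1 member was higher and 0 lower at the thresholds of the study, 5 higher and 0 lower at an unadjusted p of at most 0.05, and the median difference was 0.24. Over all probe sets, the block took higher calls from 144 to 203 and lower calls from 78 to 145. Counts over all probe sets at that p went from 698 to 700 higher and 614 to 544 lower. With the Tukey biweight, the difference of Ndufv2 was -0.05, not 0.05. Ndufs6 was followed only over arrays left out and with the Tukey biweight. Beside the shifts named here and in the report, members other than Ndufs6 whose values are given on every array kept their direction and their side of the study's thresholds under the alternatives run.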
